A study of Homo sapiens with 6 samples.

Results

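Kinesin motors and their light chains were described across 6 RNA-seq libraries of RPE-1 cells. The members were the protein-coding genes of the deposited table whose symbol is KIF or KIFC followed by a number, together with KLC1 to KLC4 and KIFAP3, which gave 47 genes of 58735 listed (19951 of them protein-coding). RPE-1 is an immortalised human retinal pigment epithelial line. The cells used here carried GFP-tagged CETN2, a centriole protein, and PLK4, the kinase that starts centriole duplication, behind an rtTA-dependent promoter that doxycycline switches on. All 6 libraries came from cells given doxycycline at 1 µg/mL, so the controls also had PLK4 induced. The 3 siControl libraries came from cells transfected with a scramble siRNA and the 3 siSON libraries from cells transfected with an siRNA against SON, a splicing cofactor found in nuclear speckles. The comparison addressed how mRNA levels differed after SON depletion under PLK4 induction, and it held no library without induction.

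Kinesins are motor proteins that use ATP to move along microtubules or to take microtubule ends apart. Transport kinesins carry vesicles, organelles and ciliary cargo, usually as heavy chains bound to light chains or other accessory subunits, while mitotic kinesins build the spindle, align chromosomes and complete cytokinesis. Most move towards microtubule plus ends, and the kinesin-14 motors move towards minus ends. In epithelial cells such as RPE-1, KIF5B is the main kinesin-1 heavy chain, and kinesin-2 extends the primary cilium that these cells grow.

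Library totals ran from 54572365 to 69764836 counts. Levels were given as CPM, counts scaled to library size after TMM factors, and 3 counts corresponded to 0.0430 to 0.0550 CPM before TMM scaling, a floor that covers counting error only. SON, the siRNA target, was at 295, 313 and 284 CPM in siControl and 67.96, 69.96 and 64.998 CPM in siSON, with a log2 fold change of -2.14 ± 0.057 (SE, edgeR adjusted p = 6.78e-10). PLK4, the gene switched on by doxycycline, had 163, 184 and 185 CPM in siControl against 113, 159 and 143 CPM in siSON. It was called lower (-0.36 ± 0.11 SE on the log2 scale, edgeR adjusted p = 0.0143). CETN2, the tagged gene, was called higher (0.38 ± 0.053 SE on that scale, edgeR adjusted p = 5.89e-05). PLK4 RNA was thus not equal between groups, and its part in the kinesin values was not tested. The keratins KRT7, KRT8 and KRT18 and vimentin, which mark the line, were counted in every library. KRT18 and KRT8 were called higher in siSON, at log2 fold changes of 1.48 and 0.34, and KRT7 lower, at -0.76, while vimentin was not called. Of 7 markers of differentiated pigment epithelium, TYR was at 0 and RPE65 and RLBP1 had at most 18 counts in any library. The other 4 of these markers were counted in every library: MITF, OTX2 and BEST1 were called higher in siSON and PMEL lower, and the list summed to 51.03 to 52.8 CPM in siControl and 73.9 to 83.3 CPM in siSON. The 8 markers of blood, neurons and other epithelium summed to 106 to 110.1 CPM in siControl and 42.6 to 46.5 CPM in siSON, most of it the neuronal gene SYT1, while CD3E and RBFOX3 were at 0. In bulk RNA, fewer cells of a type and less RNA per cell cannot be told apart. The siSON replicate 1 library stood apart: it was the lowest siSON library for 22 of 22 cell cycle genes, at a median of 80.7% of the siControl mean against 103% and 108% in the other siSON libraries. Replicate 1 was also the lowest siControl library for 20 of these 22 genes.

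Of the 47 genes, 6 had no count in any library and 3 had too few to be tested. Among the 38 tested, 24 (63.2%) passed an adjusted p of 0.05, compared with 71.7% of all 16591 genes tested. Higher levels in siSON were called for 9 of them, or 23.7% against a background of 35.2%, and lower levels for 15, or 39.5% against 36.5%. A change of at least 2-fold was called upwards for 1 kinesin, KIF6 (8.72% of all genes), and downwards for 11, or 28.9% against 20.5%. The siControl and siSON values did not overlap for 23 of the 38 kinesins and for 12457 of all 16591 genes tested. Set against these backgrounds, no count is read as particular to kinesins, and the median log2 fold change was -0.05 over the 38 kinesins and -0.03 over all genes. The summed level of all members was 2548 ± 89.95 CPM in siControl and 2578 ± 243 CPM in siSON. Adjusted p-values are those of edgeR's quasi-likelihood test with Benjamini-Hochberg adjustment over all 16591 genes, and ± marks the SD over 3 libraries unless SE is written. The split of calls depended on scaling: without TMM factors the log2 fold changes of all genes shifted by a median of -0.20, 37.7% of calls were upwards where TMM gave 49.1%, and the kinesins split into 6 higher and 19 lower. Cyclic loess normalization shifted the log2 fold changes of all genes by a median of 0.14, with 51.7% of calls upwards. It split the kinesins into 9 higher and 18 lower. The median log2 fold change of the kinesins was -0.25 without TMM factors and -0.18 with cyclic loess, so its closeness to that of all genes also depended on scaling. Neither scaling reversed the sign of a called kinesin.

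**Figure D1:**
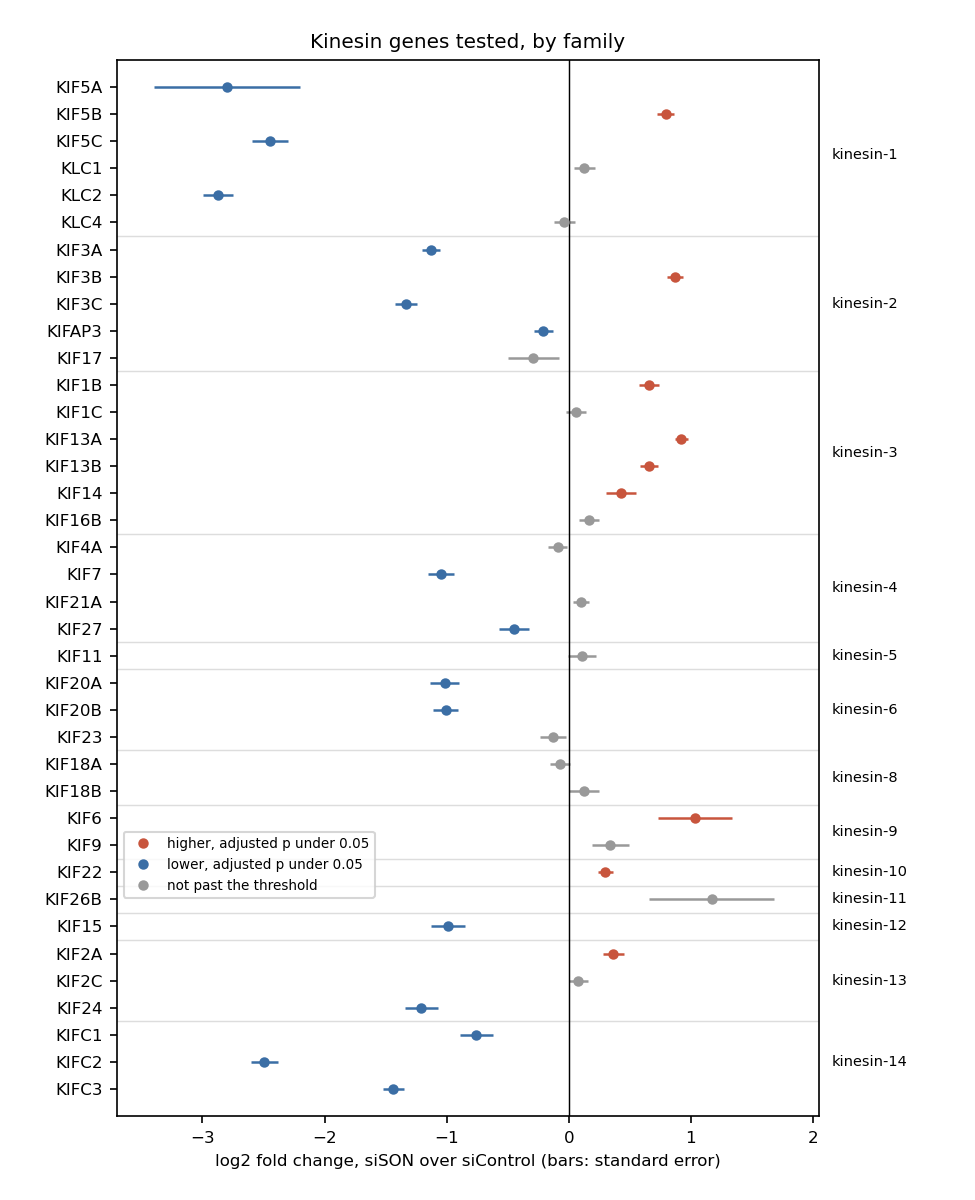
Log2 fold change of siSON over siControl for the 38 kinesin genes tested, in order of family, with bars for the standard error (3 libraries per group). Red and blue points passed an adjusted p of 0.05 upwards and downwards, and within kinesin-1 and kinesin-2 points lie on both sides of 0, from -2.87 for KLC2 to 0.87 for KIF3B.

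Within kinesin-1, the abundant heavy chain and the main light chain moved in opposite directions. KIF5B, the widely expressed heavy chain (GRCh38, chr10:32009010-32056431, minus strand), was at 272, 289.6 and 284 CPM in siControl and 432, 512 and 523 CPM in siSON. All 3 siSON values lay above all 3 siControl values, a log2 fold change of 0.79 ± 0.070 (SE, edgeR adjusted p = 1.38e-06). KLC2, a light chain that binds cargo adaptors (chr11:66257294-66267860, plus strand), was at 84.03, 94.5 and 92 CPM in siControl and 10.05, 14.8 and 12.2 CPM in siSON. Its groups were far apart, with siSON at 13.7% of siControl and a log2 fold change of -2.87 ± 0.12 (SE, edgeR adjusted p = 1.13e-08), the most negative of the 38.

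The other kinesin-1 genes were less abundant. KIF5C, a heavy chain enriched in neurons (chr2:148875250-149026759, plus strand), was at 11.5, 11.4 and 11.5 CPM in siControl and 1.62, 2.46 and 2.26 CPM in siSON, a log2 fold change of -2.45 ± 0.15 (SE, edgeR adjusted p = 6.60e-08). KIF5A, the other neuronal heavy chain, rested on 48 counts over the siControl libraries and 5 over the siSON libraries, a ratio of 7.40 with a 95% counting interval of 2.96 to 23.8. Its log2 fold change came to -2.80 ± 0.60 (SE, edgeR adjusted p = 0.00142), and its levels were 0.258, 0.157 and 0.268 CPM in siControl and 0.0345, 0.0388 and 0.0197 CPM in siSON. The siSON values of KIF5A lay under the level of 3 counts, so the size of its change was poorly determined, and cyclic loess gave -1.28 (limma adjusted p = 0.0217). Neuronal markers outside the family did not all move one way: SYT1 and TUBB3 were lower in siSON and SNAP25 was higher, and their part in these results was not tested.

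Light chains KLC1 and KLC4 were not called. KLC1 was at 45.9, 46.2 and 38.9 CPM in siControl and 47.3, 51.9 and 43.9 CPM in siSON, and its groups overlapped, with a log2 fold change of 0.13 ± 0.086 (SE, edgeR adjusted p = 0.204). KLC4 was at 15.2, 15.6 and 14.6 CPM in siControl and 16.1, 14.7 and 13.6 CPM in siSON, also overlapping, with a log2 fold change of -0.035 ± 0.088 (SE, edgeR adjusted p = 0.736). KLC1 shares its strand with part of APOPT1, and the counting rule for such reads is not given in the sources used here. KLC4 was called lower without TMM factors, at -0.23 (edgeR adjusted p = 0.0336). The sign was not stable for either gene: it was -0.070 for KLC1 without TMM factors and 0.035 for KLC4 without siSON replicate 3. KLC3 had 5, 0 and 6 counts in siControl and 5, 3 and 5 in siSON and was not tested.

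**Figure D2:**
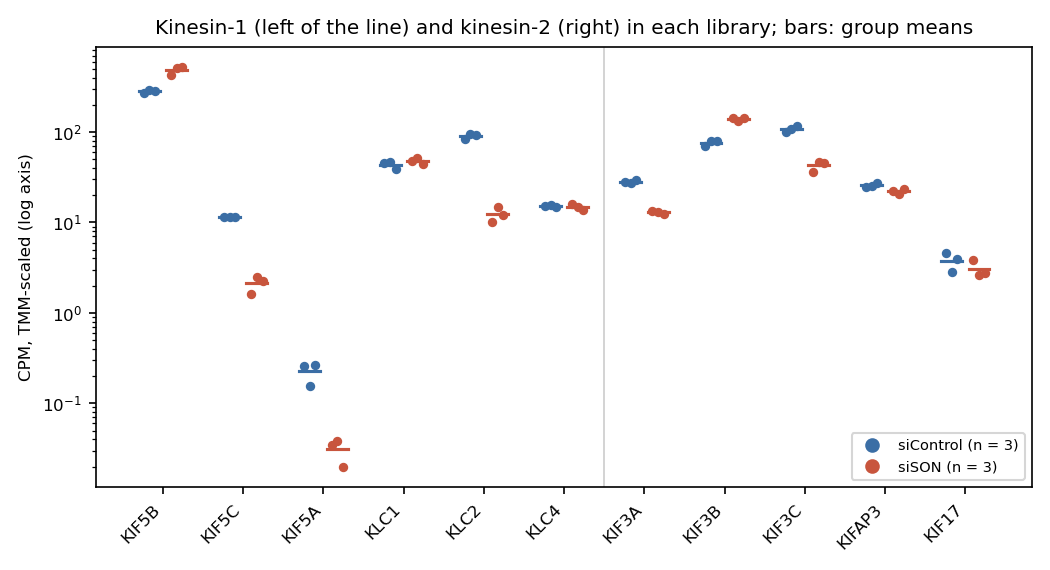
CPM of the kinesin-1 and kinesin-2 genes tested in each of the 3 siControl (blue) and 3 siSON (red) libraries on a log axis, with horizontal bars for group means. KLC2, KIF5C and KIF5A lie lower in all siSON libraries, KIF5B and KIF3B lie higher, and the groups of KLC1, KLC4 and KIF17 overlap.

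To set the light chains on 1 scale, counts were divided by the kilobases of exon of each gene and expressed as a share of the 4 light chains. By this measure KLC2 made up 76.2%, 78.1% and 79.5% of light chain signal in siControl and 26.9%, 35.1% and 33.5% in siSON. KLC1 went from 10.8% ± 1.14 to 35.1% ± 0.853 and KLC4 from 11.2% ± 0.536 to 32.8% ± 3.61. No share of these 3 overlapped between groups, and the 2-sided exact permutation test gave p = 0.1 for each, the smallest value that 3 against 3 allows. The shares of the 4 light chains are parts of 1 whole, so these are not separate results. With KLC2 lower, the shares of KLC1 and KLC4 rise although neither gene was called in CPM. The size of the KLC1 and KLC4 shares depended on the length used, KLC1 having 19251 exonic bases in GENCODE. Without division by length KLC1 made up 29.3% and 63.7% of light chain counts and KLC4 10.2% and 19.8%, while KLC2 still went from 60.5% to 16.4%. KIF5B held 97.4% ± 0.101 of heavy chain signal in siControl and 99.7% ± 0.0335 in siSON, with KIF5C going from 2.53% to 0.273% (exact permutation p = 0.1 for both, again not separate results).

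Summed per kilobase, the 4 light chains were at 20.1, 22.1 and 21.1 CPM per kb in siControl and 6.82, 7.70 and 6.64 CPM per kb in siSON. The 3 heavy chains were at 47.6, 50.5 and 49.6 CPM per kb in siControl and 73.7, 87.4 and 89.3 CPM per kb in siSON. The ratio of heavy to light chain signal was thus 2.34 ± 0.0418 in siControl and 11.9 ± 1.39 in siSON. Its size depended on the length used: it was 1.97 and 6.59 without division by length, and 0.940 and 2.94 per kb of the longest coding transcript. The light chains together and the heavy chains together had groups that did not overlap, in opposite directions. This ratio, like those for kinesin-2 that follow, was chosen after the values were seen and is given as a description.

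**Figure D3:**
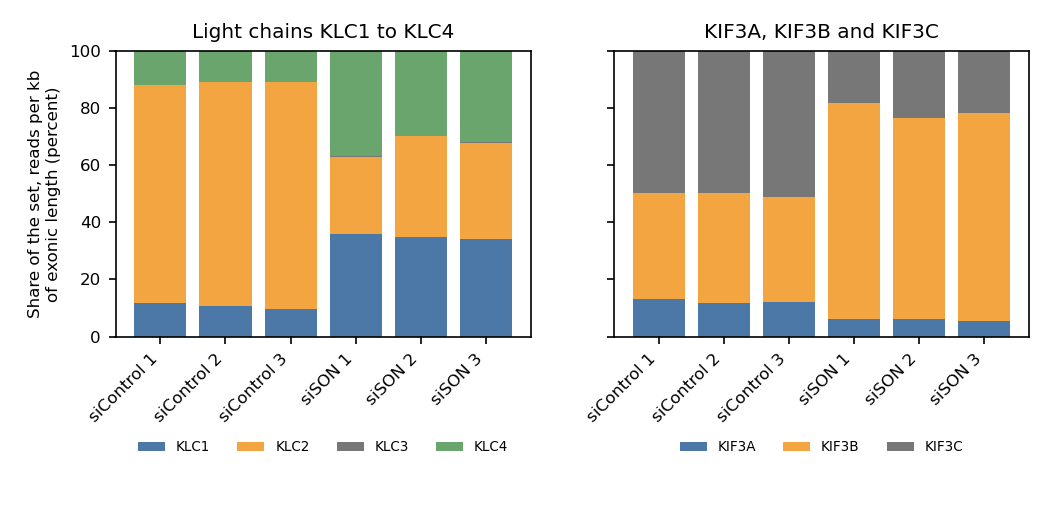
Share of each gene in its set in each library, in percent of reads per kb of exonic length, for the 4 light chains (left) and for KIF3A, KIF3B and KIF3C (right). KLC2 falls from 77.97% to 31.8% of the light chains and KIF3B goes from 37.4% to 72.8% of its set (means of 3 libraries).

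Kinesin-2, the motor of anterograde transport in cilia, also changed in different directions by subunit. KIF3A, one of the paired heavy chains (chr5:132692628-132737638, minus strand), was at 28.3, 27.5 and 29.1 CPM in siControl and 13.4, 13.03 and 12.4 CPM in siSON. KIF3B, its usual partner (chr20:32277664-32335011, plus strand), was at 70.5, 79.2 and 79.9 CPM in siControl and 143, 133 and 144 CPM in siSON. Neither gene's groups overlapped, and the log2 fold changes were -1.13 ± 0.074 (SE, edgeR adjusted p = 1.28e-07) for KIF3A and 0.87 ± 0.064 (SE, edgeR adjusted p = 3.46e-07) for KIF3B. KIF3C, an alternative partner of KIF3A (chr2:25926596-25982749, minus strand), was at 99.9, 108 and 115 CPM in siControl and 36.5, 46.2 and 45.5 CPM in siSON, a log2 fold change of -1.33 ± 0.092 (SE, edgeR adjusted p = 2.16e-07).

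Per kb of exon, KIF3C held 50.2%, KIF3B 37.4% and KIF3A 12.4% of the set in siControl, and in siSON they held 21.2%, 72.8% and 6.001%. Per kb of the longest coding transcript, KIF3A and KIF3B were at 28.5% and 27.4% in siControl and at 16.1% and 62.2% in siSON, so their order in siControl depended on the length used. For each unit of KIF3B signal per kb of exon there was 0.358, 0.309 and 0.324 of KIF3A in the siControl libraries and 0.0833, 0.0875 and 0.0767 in the siSON libraries. Per kb of the longest coding transcript this ratio was 1.04 and 0.259 as group means. KIFAP3, the accessory subunit that joins KIF3A and KIF3B to cargo, was at 24.8, 24.99 and 27.3 CPM in siControl and 22.5, 20.7 and 23.6 CPM in siSON. Its log2 fold change of -0.21 ± 0.078 (SE, edgeR adjusted p = 0.0335) was small, and it was not called without siControl replicate 3, at -0.17 (edgeR adjusted p = 0.116), or without siSON replicate 2, at -0.15 (edgeR adjusted p = 0.160). KIF17, a homodimeric kinesin-2, was at 4.59, 2.7997 and 3.96 CPM in siControl and 3.84, 2.64 and 2.79 CPM in siSON, and its overlapping groups gave -0.29 ± 0.21 (SE, edgeR adjusted p = 0.228). Without siControl replicate 2, its lowest control, KIF17 was called at -0.48 (edgeR adjusted p = 0.0495).

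Kinesin-3 motors, which carry vesicles and endosomes, had 4 of the 6 tested called higher, where 35.2% of all genes were, and the other 2 not called. KIF13A, which moves recycling endosomes and melanosomes (chr6:17759183-17987623, minus strand), was at 80.6, 80.97 and 75.8 CPM in siControl and 155, 148 and 147 CPM in siSON, a log2 fold change of 0.92 ± 0.054 (SE, edgeR adjusted p = 5.54e-08). KIF1B, a carrier of mitochondria and synaptic vesicle precursors, rose by 0.66 ± 0.081 (SE, edgeR adjusted p = 2.08e-05) on the log2 scale, with means of 78.7 ± 6.32 CPM in siControl and 124 ± 12.2 CPM in siSON. KIF13B, a motor for membrane scaffolds, rose by 0.66 ± 0.074 (SE, edgeR adjusted p = 1.04e-05) on that scale, with 30.05 ± 1.98 CPM in siControl and 47.4 ± 2.93 CPM in siSON. All 3 of these genes had siSON values above every siControl value, where 12457 of all 16591 genes had groups that did not overlap in either direction. KIF1C, the most counted member of the family and a long-range vesicle carrier, was at 273, 287 and 304 CPM in siControl and 261, 309.5 and 329.8 CPM in siSON. Its groups overlapped and its log2 fold change came to 0.058 ± 0.080 (SE, edgeR adjusted p = 0.533). That sign turned to -0.14 without TMM factors and to -0.30 (limma adjusted p = 0.00665) with cyclic loess, and the gene was called at 0.16 (edgeR adjusted p = 0.0215) without siSON replicate 1. KIF16B, a motor of early endosomes, was at 18.2 ± 0.941 CPM in siControl and 20.5 ± 1.21 CPM in siSON, with a log2 fold change of 0.17 ± 0.080 (SE, edgeR adjusted p = 0.0811). It was called at 0.23 (edgeR adjusted p = 0.0428) when siSON replicate 2 was left out and at 0.23 (limma adjusted p = 0.0237) with cyclic loess. The remaining member called higher, KIF14, acts in cytokinesis and was grouped with the mitotic kinesins.

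Among kinesins tied to cilia, centrioles and Hedgehog signalling, falls and rises were both found. KIF24, a kinesin-13 that sits at centrioles and restrains cilium growth, was at 22.04, 24.9 and 23.3 CPM in siControl and 7.94, 10.3 and 12.2 CPM in siSON, a log2 fold change of -1.21 ± 0.13 (SE, edgeR adjusted p = 9.99e-06). KIF7, a kinesin-4 of the ciliary tip that regulates GLI proteins, was at 8.699, 8.24 and 8.08 CPM in siControl and 4.12, 3.897 and 4.09 CPM in siSON, a log2 fold change of -1.05 ± 0.11 (SE, edgeR adjusted p = 4.11e-06). The groups of both genes were apart, with the siSON values of KIF7 close together and those of KIF24 more spread. KIF27, a relative of KIF7, was at 4.88 ± 0.295 CPM in siControl and 3.58 ± 0.245 CPM in siSON, with a log2 fold change of -0.45 ± 0.12 (SE, edgeR adjusted p = 0.00706), which cyclic loess reduced to -0.11 (limma adjusted p = 0.442). KIF6 and KIF9, the kinesin-9 motors of motile cilia and flagella, were both scarce. KIF6 was at 2.16, 1.02 and 1.18 CPM in siControl and 4.07, 2.404 and 2.44 CPM in siSON, and its log2 fold change of 1.03 ± 0.30 (SE, edgeR adjusted p = 0.0103) was the only rise of at least 2-fold that was called. In both groups replicate 1 held the highest KIF6 value, and the lowest siSON value lay just above the highest siControl value. KIF9 was at 3.88, 3.26 and 3.41 CPM in siControl and 5.15, 3.76 and 4.45 CPM in siSON, and its log2 fold change of 0.34 ± 0.15 (SE, edgeR adjusted p = 0.0606) was not called. It was called without siSON replicate 2, at 0.46 (edgeR adjusted p = 0.0232), and with cyclic loess, at 0.67 (limma adjusted p = 0.00227). It overlaps KIF9-AS1 and KLHL18 on the other strand, from which its reads cannot be told apart if strand was not used in counting.

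Of the remaining microtubule-regulating kinesins, KIF2A was called higher while KIF21A and KIF26B were not called. KIF2A, a depolymerase of microtubule ends that also acts at the basal body, was at 51.4, 59.3 and 59.1 CPM in siControl and 64.1, 78.3 and 76.2 CPM in siSON, a log2 fold change of 0.36 ± 0.086 (SE, edgeR adjusted p = 0.00263). The KIF2A call did not hold without TMM factors, at 0.17 (edgeR adjusted p = 0.125), or with cyclic loess, at 0.18 (limma adjusted p = 0.0713), and its locus overlaps IPO11 on the same strand. KIF21A, a kinesin-4 that restrains microtubule growth at the cell cortex, was at 48.3 ± 2.39 CPM in siControl and 51.8 ± 2.46 CPM in siSON, with a log2 fold change of 0.10 ± 0.065 (SE, edgeR adjusted p = 0.177). Without siSON replicate 1 it was called at 0.16 (edgeR adjusted p = 0.0457), and its sign turned to -0.094 without TMM factors. KIF26B, an atypical kinesin-11 linked to cell adhesion, was at 0.373, 0.267 and 0.468 CPM in siControl and 1.499, 0.717 and 0.275 CPM in siSON. The siSON values of KIF26B spread widely, replicate 3 lay among the controls, and the log2 fold change came to 1.17 ± 0.51 (SE, edgeR adjusted p = 0.0617). It was called at 1.59 (edgeR adjusted p = 0.00410) without that library and at 1.17 (DESeq2 adjusted p = 0.0405) with DESeq2 and 1.36 (limma adjusted p = 0.0283) with cyclic loess, and it was at 0.43 (edgeR adjusted p = 0.435) without siSON replicate 1.

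The 3 kinesin-14 motors tested, which move towards microtubule minus ends, were called lower, as were 36.5% of all genes, and nothing particular to the family is read from 3 genes. KIFC2, a minus-end motor best known from neurons, was at 34.02, 31.4 and 26.9 CPM in siControl and 4.95, 5.88 and 5.57 CPM in siSON, a log2 fold change of -2.49 ± 0.11 (SE, edgeR adjusted p = 9.16e-09). KIFC3, which acts at cell junctions and the Golgi (chr16:57758217-57863053, minus strand), was at 103, 85.1 and 90.8 CPM in siControl and 37.9, 32.7 and 32.1 CPM in siSON, a log2 fold change of -1.44 ± 0.087 (SE, edgeR adjusted p = 7.14e-08). Both genes had siSON values well below the controls. KIFC2 overlaps FOXH1 on the other strand. KIFC1, the mitotic kinesin-14 that focuses spindle poles and clusters extra centrosomes, was at 62.2, 64.5 and 66.3 CPM in siControl and 28.8, 40.8 and 44.6 CPM in siSON, a log2 fold change of -0.76 ± 0.13 (SE, edgeR adjusted p = 0.000570).

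The 13 kinesins of the mitotic group include many genes expressed in the G2 and M phases of the cell cycle, whose promoters often carry a CHR element and CCAAT boxes. CHR was searched as TTTGAA and the CCAAT box as CCAAT, each on both strands (TTCAAA and ATTGG on the other), in the RefSeq window from 250 bases before to 50 bases after the gene start (GRCh38.p14). A window was found for 37 of the 47 members. CHR letters were present in 10 of 13 mitotic members (76.9%), 1 of 24 other members (4.17%) and 15.2% of all 35114 promoters of the table. CCAAT letters were present in 11 (84.6%), 6 (25%) and 34.6%, and both were present in 9 (69.2%), 1 (4.17%) and 5.9%. No match of one motif overlapped a match of the other in any member. A match describes these letters and is not a measured binding site. The stretches before the start of 4 mitotic members are shown, ending before any GENCODE exon of the gene, because they hold such letters in genes that differed in response: KIF11 and KIF4A were not called, KIF14 was called higher and KIF20B lower. KIF11 and KIF4A show both CHR and CCAAT letters, and KIF14 and KIF20B show CCAAT letters alone. Capitals mark these letters on either strand, each sequence reads 5′ to 3′ on the strand of its gene, and the CHR matches of KIF14 and KIF20B lie after the start and are not shown.
KIF11, chr10:92592880-92593129, plus strand: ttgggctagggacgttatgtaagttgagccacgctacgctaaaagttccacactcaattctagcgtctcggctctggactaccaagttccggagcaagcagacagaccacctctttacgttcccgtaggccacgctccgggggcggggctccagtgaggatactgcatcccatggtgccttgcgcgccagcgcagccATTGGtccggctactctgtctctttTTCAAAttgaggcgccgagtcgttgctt
KIF4A, chrX:70289854-70290089, plus strand: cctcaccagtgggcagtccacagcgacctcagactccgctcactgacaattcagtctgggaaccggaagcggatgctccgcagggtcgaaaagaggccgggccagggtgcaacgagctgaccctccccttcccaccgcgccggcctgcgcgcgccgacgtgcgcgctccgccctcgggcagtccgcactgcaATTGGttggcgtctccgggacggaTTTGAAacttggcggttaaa
KIF14, chr1:200620752-200621001, minus strand: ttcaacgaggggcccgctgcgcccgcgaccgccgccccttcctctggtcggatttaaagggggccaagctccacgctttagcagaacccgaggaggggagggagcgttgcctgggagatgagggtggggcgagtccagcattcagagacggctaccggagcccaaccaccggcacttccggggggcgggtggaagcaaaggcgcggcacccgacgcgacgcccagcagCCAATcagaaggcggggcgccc
KIF20B, chr10:89701340-89701589, plus strand: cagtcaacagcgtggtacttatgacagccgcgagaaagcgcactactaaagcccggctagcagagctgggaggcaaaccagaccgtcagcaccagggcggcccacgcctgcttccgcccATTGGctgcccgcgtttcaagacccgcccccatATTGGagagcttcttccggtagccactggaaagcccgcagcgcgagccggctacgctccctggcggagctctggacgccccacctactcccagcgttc

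Of the 13 mitotic kinesins, 12 were tested, 4 fell, 2 rose and 6 were not called, so 50% were called against 71.7% of all genes. KIF20A, the kinesin-6 that brings Aurora B to the central spindle (chr5:138178719-138187715, plus strand), was at 105, 118 and 123 CPM in siControl and 45.6, 62.2 and 63.4 CPM in siSON, a log2 fold change of -1.01 ± 0.12 (SE, edgeR adjusted p = 2.60e-05). KIF20B, its relative that acts in abscission, was at 160.03, 182 and 174 CPM in siControl and 70.4, 94.1 and 92.2 CPM in siSON, a log2 fold change of -1.01 ± 0.10 (SE, edgeR adjusted p = 7.58e-06). KIF15, a kinesin-12 that supports the bipolar spindle, was at 19.9, 24.1 and 23.2 CPM in siControl and 8.63, 13.1 and 12.2 CPM in siSON, a log2 fold change of -0.99 ± 0.14 (SE, edgeR adjusted p = 8.45e-05). These 3 genes and KIFC1 were the mitotic kinesins called lower, and each kept siSON values below every control. In either direction, groups did not overlap for 5 of the 12 mitotic kinesins tested and for 12457 of all 16591 genes. KIF20A overlaps CDC23 and BRD8 on the other strand, and KIF15 shares its strand with TMEM42.

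KIF14 and KIF22 were the mitotic kinesins called higher. KIF14, which recruits citron kinase to the midbody, was at 68.4, 88.8 and 79.8 CPM in siControl and 87.05, 110.3 and 122 CPM in siSON. The siSON replicate 1 value lay within the control range, and the log2 fold change came to 0.43 ± 0.13 (SE, edgeR adjusted p = 0.0125). KIF22, a chromokinesin that pushes chromosome arms outward, was at 59.3, 59.6 and 59.04 CPM in siControl and 66.7, 76.1 and 76.5 CPM in siSON, a log2 fold change of 0.30 ± 0.065 (SE, edgeR adjusted p = 0.00148). Both calls were kept with RLE factors and with DESeq2 but not under 2 other scalings: library size alone gave 0.23 (edgeR adjusted p = 0.124) for KIF14 and 0.10 (edgeR adjusted p = 0.191) for KIF22, and cyclic loess gave 0.19 (limma adjusted p = 0.165) and 0.12 (limma adjusted p = 0.117).

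Each of the other 6 mitotic kinesins had overlapping groups. KIF11, the kinesin-5 that separates spindle poles, was at 131, 136 and 141 CPM in siControl and 116, 161 and 164 CPM in siSON, a log2 fold change of 0.11 ± 0.12 (SE, edgeR adjusted p = 0.407). KIF23, the motor of centralspindlin, was at 154, 151 and 155 CPM in siControl and 112, 153 and 154 CPM in siSON, a log2 fold change of -0.13 ± 0.11 (SE, edgeR adjusted p = 0.287). In both genes siSON replicate 1 lay below every control, while replicates 2 and 3 lay at 118% and 121% of the siControl mean for KIF11 and at 99.7% and 100.9% for KIF23. KIF2C, the centromeric depolymerase, was at 106, 116 and 122 CPM in siControl and 107, 132 and 125 CPM in siSON, a log2 fold change of 0.079 ± 0.081 (SE, edgeR adjusted p = 0.399). KIF4A, a chromokinesin of the central spindle, was at 81.6, 80.96 and 85.3 CPM in siControl and 67.9, 78.7 and 86.3 CPM in siSON, a log2 fold change of -0.090 ± 0.080 (SE, edgeR adjusted p = 0.332). KIF18A, which limits chromosome movement at the metaphase plate, was at 45.5, 53.8 and 54.5 CPM in siControl and 45.3, 48.9 and 52.1 CPM in siSON, a log2 fold change of -0.073 ± 0.083 (SE, edgeR adjusted p = 0.446). KIF18B, which shortens astral microtubules, was at 48.2 ± 3.3003 CPM in siControl and 52.6 ± 9.71 CPM in siSON, with a log2 fold change of 0.13 ± 0.12 (SE, edgeR adjusted p = 0.370). KIF4B, a near-identical copy of KIF4A without introns, had 5, 7 and 10 counts in siControl and 4, 3 and 1 in siSON, was not tested, and may share reads with KIF4A.

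The siSON replicate 1 library was the lowest of the siSON libraries for 12 of 12 mitotic kinesins tested, at a median of 83.7% of the siControl mean against 97.5% and 103% in replicates 2 and 3. Over all 38 kinesins tested it was the lowest siSON library for 24. Replicate 1 was likewise the lowest siControl library for 9 of the 12 mitotic kinesins and 21 of the 38. Without siSON replicate 1, 5 mitotic kinesins were called higher and 4 lower, and of all 17080 genes then tested 5814 were called higher and 5969 lower. KIF11 was then called at 0.27 (edgeR adjusted p = 0.000516), KIF18B at 0.29 (edgeR adjusted p = 0.00220) and KIF2C at 0.17 (edgeR adjusted p = 0.0299). KIF4A and KIF23 changed sign, to 0.012 and 0.018, and were not called. That fit kept siControl replicate 1, which was also low in most of these genes. Without siControl replicate 1, 2 mitotic kinesins were called higher and 4 lower (5560 and 5975 of all genes). A replicate block gave the same mitotic split (6052 and 6261 of all genes). KIF11 was at 0.060 (edgeR adjusted p = 0.687) and 0.096 (edgeR adjusted p = 0.260) in these 2 fits. Scaling by library size alone or by cyclic loess gave 0 higher and 7 lower, with KIF4A, KIF23 and KIF18A called lower in place of the 2 rises. Of all 16591 genes, library size alone called 4441 higher and 7351 lower, and cyclic loess 6037 higher and 5629 lower. The falls of KIF20A, KIF20B, KIF15 and KIFC1 were called under each of these settings, but their size varied. Without siSON replicate 1 they were -0.86, -0.87, -0.81 and -0.58 on the log2 scale, so KIF20A and KIF20B no longer reached 2-fold. With library size alone they were larger, at -1.21, -1.20, -1.19 and -0.95. Over all 38 kinesins, leaving out siSON replicate 1 gave 14 higher and 15 lower.

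**Figure D4:**
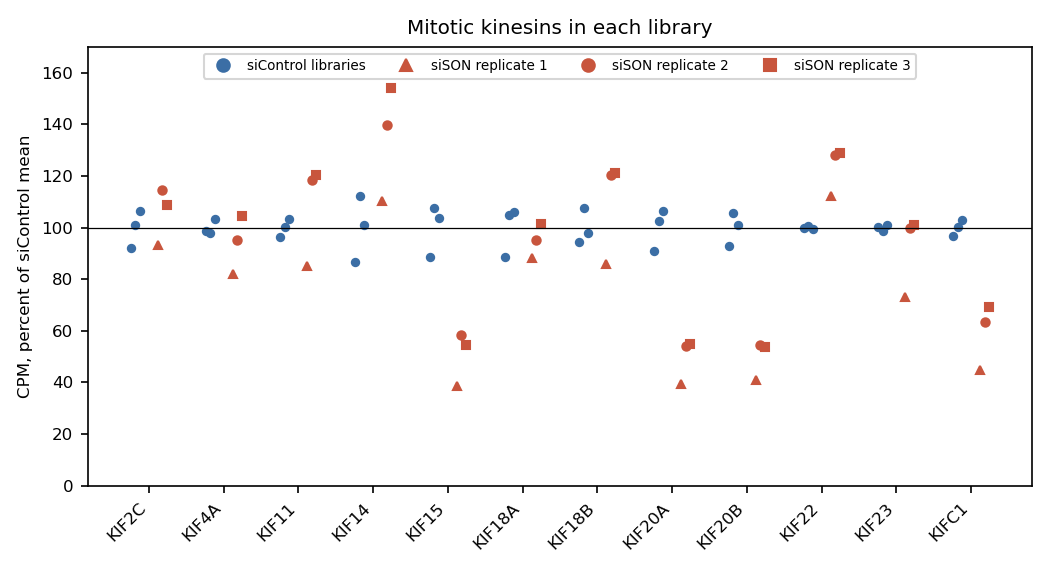
CPM of the 12 mitotic kinesins tested in each library, in percent of the siControl mean of the gene, with siControl libraries in blue and siSON replicates 1, 2 and 3 as a red triangle, circle and square. The triangle is the lowest red mark for all 12 genes, and KIF15, KIF20A, KIF20B and KIFC1 lie at 38.5% to 69.4% in all 3 siSON libraries.

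The 22 genes of the cell cycle list, markers of proliferating cells, had 8 called higher and 5 called lower, with a median log2 fold change of -0.03 and a range from -0.75 for CCNB2 to 0.74 for BUB1. The called share was 59.1% against 71.7% of all genes. Under library size scaling the same list had 3 higher and 10 lower, where all genes had 4441 and 7351. Under cyclic loess it had 4 higher and 12 lower, where all genes had 6037 and 5629. The summed level of the mitotic kinesins was 1038, 1127 and 1129.9 CPM in siControl and 797, 1028 and 1051 CPM in siSON, and that of the cell cycle list was 3259, 3532 and 3532 CPM in siControl and 2764, 3517 and 3696 CPM in siSON. For both lists the siSON replicate 1 sum was below every control and the 3 siSON values spread more than the controls. The part of cell cycle position in the kinesin values was not tested.

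Intron lengths were set beside the direction of change. The median intron of the longest coding transcript was 571 bases, as a median over the 11 kinesins called at least 2-fold lower, 1155 bases over all 15 called lower, 1691 bases over the 9 called higher and 1645.25 bases over the 14 not called. Introns under 250 bases made up a median of 22.2%, 14.3%, 6.90% and 12.9% of introns in those sets. KLC2 had a median intron of 215 bases, KIFC2 of 105.5 bases, KIF20A of 163 bases and KIF5A of 374.5 bases, and all 4 fell at least 2-fold. Single genes went both ways. KIF22, with a median intron of 227 bases, rose, KIF1C, at 415.5 bases, was not called, and KIF24 and KIF5C, at 3469 and 2815 bases, fell. Across the 38 genes Spearman's rho between log2 fold change and median intron length was 0.38, against 0.21 over 14722 genes with an intron, and that with exonic GC content was -0.19, against -0.18 over 16585 genes. Genes are not independent replicates and share the 6 libraries, so these are descriptions.

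**Figure D5:**
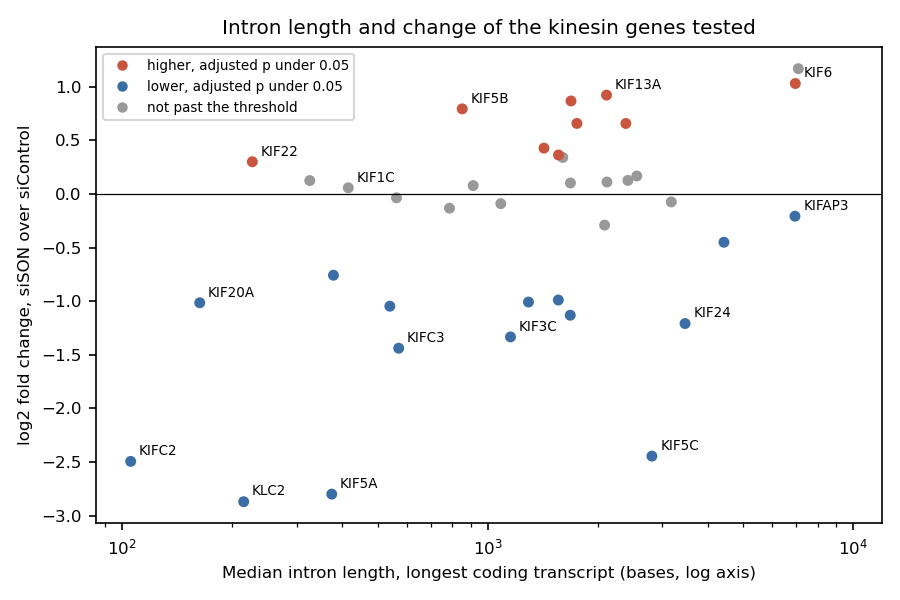
Log2 fold change of siSON over siControl against the median intron length in bases (log axis) for the 38 kinesin genes tested, 1 point per gene. KLC2, KIFC2 and KIF5A lie at short introns and strongly negative values, while KIF5C and KIF24 are low at long introns and KIF22 is above 0 at a short one.

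Partners of kinesins, a list of 50 adaptors, cargo linkers and regulators in the table, had 46 tested, 18 called higher and 16 lower. The share called was 73.9% against 71.7% of all genes, and the median log2 fold change was 0.065. CLSTN3, a calsyntenin (its relative CLSTN1 binds kinesin-1 light chains), fell from 58.98 ± 2.13 CPM in siControl to 9.42 ± 0.818 CPM in siSON, a log2 fold change of -2.65 ± 0.081 (SE, edgeR adjusted p = 1.32e-09). MAPK8IP1, the JIP1 scaffold that links cargo to light chains, was at 20.6 ± 0.979 CPM in siControl and 6.72 ± 0.777 CPM in siSON, a log2 fold change of -1.62 ± 0.10 (SE, edgeR adjusted p = 9.65e-08). BORCS8, a subunit of the lysosomal BORC complex, fell by 1.54 ± 0.11 (SE, edgeR adjusted p = 2.36e-07) on the log2 scale. RHOT1, the mitochondrial GTPase that recruits kinesin through TRAK proteins, was at 22.7 ± 1.17 CPM in siControl and 46.01 ± 1.51 CPM in siSON, a log2 fold change of 1.02 ± 0.068 (SE, edgeR adjusted p = 1.59e-07). RANBP2, a nucleoporin that binds KIF5B and KIF5C, rose by 0.70 ± 0.063 (SE, edgeR adjusted p = 1.60e-06) on that scale. Library size scaling gave 14 higher and 21 lower in this list, where all genes had 4441 and 7351. Cyclic loess gave 14 higher and 20 lower, where all genes had 6037 and 5629. The list also held kinesins whose symbols fall outside the rule, CENPE of the kinetochore and STARD9 of the spindle poles, and both are among its 16 called lower. CENPE had a log2 fold change of -0.63 ± 0.15 (SE, edgeR adjusted p = 0.00396) and STARD9 of -0.92 ± 0.11 (SE, edgeR adjusted p = 1.66e-05).

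The members without a test were of limited information at this depth. KIF21B, a kinesin-4, had 3, 3 and 8 counts in siControl and 0, 3 and 1 in siSON, at or near the level of 3 counts. KIF1A, KIF12, KIF19, KIF25, KIF26A and KIF2B had 0 counts in all 6 libraries, which allows up to 0.0430 to 0.0550 CPM in a library. Of the 47 genes, 33 overlap another annotated gene, and whether strand was used in counting is not given in the sources used here.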

How the data were processed

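mRNA-seq counts from 6 RPE-1 libraries, 3 per group, were used. Raw counts of reads by gene were deposited as whole numbers, per the file header. The submitters' processing notes name cutadapt 1.16, STAR 2.5.2a, featureCounts 1.6.2, DESeq2 1.28.1 and genome build hg38. The annotation, strand setting and treatment of multi-mapping reads are not given in the sources used here. Gene models and coordinates were taken from GENCODE 29 (GRCh38), to which all 58735 identifiers matched.

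Columns were matched to libraries by title. Counts were filtered with filterByExpr (minimum count 10), scaled by TMM and tested with edgeR 4.0.16 (R 4.3.3, robust quasi-likelihood fit), with Benjamini-Hochberg adjustment over 16591 genes and calls at an adjusted p under 0.05. Total counts ran from 54572365 to 69764836 per library. Replicates differed by more than sampling noise (chi-square per degree of freedom 7.21 to 26.3). The labels do not say that replicates were separate cultures, so p-values measure the spread between these libraries, which may be technical. In 2 simulations with known changes in 191 and 192 of the genes tested, 4-fold or 8-fold changes were recovered for 97.9% and 98% of genes. False calls were 10.6% of calls with gene-wise dispersions, above the limit of 10% set for the check. They were 3.09% with a dispersion trend plus scatter between genes, a simulation added after the first exceeded the limit. Far fewer genes changed in both simulations than the 11888 called in the data, so they do not measure false calls or scaling at that extent of change.

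The members and lists were chosen with earlier results of these data known. Named genes were all members with a count, with values in every library for those changed at least 2-fold, the most counted of each family, kinesin-1 and kinesin-2, and the 3 largest rises and falls of the partner list at a mean log2 CPM of at least 1, of which 1 is not reported here. Genes shown beyond that were chosen after their values were seen. Shares within a set were tested by exact permutation. Alternatives were DESeq2 1.42.0, limma 3.58.1 (voom, cyclic loess), other scalings and filters, a replicate block and leaving out each library. Promoter sequences are from RefSeq.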

Additional observations from a re-analysis of the deposited data

How the results depend on the processing

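The number of kinesins called was 21 (adjusted p under 0.01) to 29 (without siSON replicate 1) under the alternatives tried, against 24, and the count of 2-fold changes was 9 to 14, against 12. Of all genes, 10265 were called at an adjusted p under 0.01 and 11783 without siSON replicate 1, against 11888. Of the 24 called, 24 were shared with the fit that adds the replicate number as a block, which called 25 (KIF9 was added, at a log2 fold change of 0.34, adjusted p = 0.0291) and 12313 of all genes against 11888. Same-numbered libraries correlated at 0.0461 to 0.194 in their deviations, and differently numbered ones at -0.138 to 0.0286 (mean -0.0595). Each same-numbered pair was thus above every other pair, so libraries of 1 number shared part of their deviation. Not every same-numbered pair was above 0.1, the limit used, and the main fit did not pair the libraries.

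Signs reversed only for kinesins that were not called. Library size alone gave log2 fold changes of -0.070 for KLC1, -0.14 for KIF1C, -0.030 for KIF16B, -0.094 for KIF21A, -0.084 for KIF11, -0.071 for KIF18B and -0.12 for KIF2C. Cyclic loess gave 0.083 for KLC4, 0.072 for KIF17, -0.30 for KIF1C, -0.034 for KIF21A, -0.19 for KIF11, -0.026 for KIF18B and -0.18 for KIF2C. Leaving out 1 library in turn gave -0.087 to 0.035 for KLC4, -0.0041 to 0.16 for KIF1C, -0.16 to 0.012 for KIF4A, -0.20 to 0.018 for KIF23 and -0.0015 to 0.17 for KIF2C. The difference in share between groups, in percentage points, was 34.4 and 33.5 for KLC1, -44.1 and -42.3 for KLC2, 9.62 and 8.66 for KLC4, 3.55 and 3.05 for KIF5B and -3.48 and -2.97 for KIF5C without length division and per kb of the longest coding transcript, a length chosen after seeing the data, against 24.3, -46.2, 21.6, 2.32 and -2.26 per kb of all exons. Low counts limit KIF5A, KIF6 and KIF26B.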
